A study of Mus musculus with 22 samples.

Results

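The metabotropic glutamate receptors are G protein-coupled receptors that adjust glutamate synapses on a slower time scale than the glutamate-gated channels. The genes described are Grm5 of group I, Grm2 and Grm3 of group II, and Grm4, Grm7 and Grm8 of group III, which were taken by name from the table of deposited counts. They are 6 of the 23037 genes that could be matched there. They were compared across the hippocampus, cortex and cerebellum, and between circTulp4-deficient (CD) and wild-type mice in each region.

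Group I receptors sit mostly at the edge of the postsynaptic density and act through Gq, phospholipase C and the release of stored calcium. Group II and group III receptors act through Gi/o, lower cyclic AMP and dampen calcium channels. Many of them are autoreceptors on glutamate terminals, where they limit the probability of release, and mGlu3 is also made by astrocytes. The study found that excitatory transmission is lower when the circular RNA circTulp4 is reduced. It compared brain mRNAs between genotypes to test whether circTulp4 acts as a decoy for microRNAs.

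CD mice carry an edited splice acceptor at the Tulp4 exon from which circTulp4 is made, and the line was kept on a C57BL/6 background. Per the study's methods the repair template also changed the guide's protospacer adjacent motif. No further allele and no treatment is named for either group. Whole hippocampus, cortex and cerebellum were dissected, and age and sex of the sequenced mice are not given in the sources used here. The table holds 22 libraries of polyadenylated RNA made by CelSeq2, which reads the 3′ ends of transcripts, with 3 wild-type and 4 CD hippocampi, 4 and 4 cortices, and 4 and 3 cerebella. They came from 8 mice, 4 of each genotype (wild-type m162, m164, m240 and m244, and CD m118, m138, m190 and m242), and the same mouse number marks regions of one animal.

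Library totals, with 1 transcript taken for each gene, ran from 2760846 to 8858937 counts, so that a level of 5 cpm (counts scaled to the library total) stood for 13.8 to 44.3 counts. The tissue labels were checked against marker lists. Cerebellar granule cell markers summed to 1919 to 2148 cpm in the cerebella and to 33.5 to 73.0 cpm elsewhere, and cortical neuron markers summed to 784 to 1021 cpm in the cortices, 193 to 222 cpm in the hippocampi and 30.2 to 46.2 cpm in the cerebella. The hippocampal marker list summed to 1004.5 to 1594 cpm in hippocampi and 178 to 263 cpm in cortices, but to 1255 to 1772 cpm in cerebella, where Calb2 alone was at 818 to 1291 cpm, so that the list set hippocampus apart from cortex only. Of its genes Spink8 and Lct reached at least 16.2 and 11.1 cpm in every hippocampus and at most 2.30 and 1.12 cpm in any other library. They were picked out after their values were seen, so they are no independent check of the labels. Prox1 and Zbtb20 were also higher in every hippocampus than in any other library. Wfs1, at 23.2 to 39.5 cpm in hippocampi and 19.1 to 35.9 cpm in cortices, did not separate these regions. The circular RNA is a closed molecule without a poly(A) tail, and whether poly(A) priming captured any of it was not tested. The genotype labels were checked on counts of Tulp4. A Tulp4 transcript (NM_054040) has a first exon that lies within the circle and that NM_001103181 lacks, and its counts beyond those of NM_001103181 were 2.71 to 3.69 cpm for the wild-type hippocampi, against 0.423 to 0.573 cpm for the CD hippocampi of mice m138, m190 and m242. In the hippocampus library labelled CD of mouse m118 this value was 3.98 cpm (16 counts), which goes against its label, while the cortex and cerebellum of the same mouse gave 0.896 and 1.55 cpm. The values were 1.45 to 6.02 cpm in wild-type and 0.141 to 1.29 cpm in CD cortices, and 3.12 to 13.6 cpm in wild-type and 0.599 to 2.61 cpm in CD cerebella. These groups did not overlap, but the lowest wild-type cortex, at 4 counts, lay close to the highest CD cortex, at 8 counts. By quantitative PCR the paper found no genotype difference in linear Tulp4 of the brain. Whether the first-exon counts come from linear or circular RNA was not tested. The receptor results between genotypes in the hippocampus are given with and without the library of mouse m118.

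In mm10 (GRCm38), Grm5 lies on chromosome 7 from 87583981 to 88135063 on the plus strand, and Grm2 on chromosome 9 from 106644534 to 106656109 on the minus strand. Grm3 lies on chromosome 5 from 9485236 to 9725352 and Grm4 on chromosome 17 from 27422387 to 27513826, both on the minus strand. Grm7 and Grm8 are both on chromosome 6, Grm7 from 110645349 to 111567230 on the plus strand and Grm8 from 27275121 to 28135146 on the minus strand. Each gene was represented by the RefSeq transcript with the most counts, which was NM_001081414.2 for Grm5, NM_001160353.1 for Grm2, NM_181850.2 for Grm3, NM_001291045.1 for Grm4, NM_177328.3 for Grm7 and NM_001311072.1 for Grm8. Counts are taken at 3′ ends, which splice forms can share, so these values are levels of the gene's measured 3′ end and not of 1 isoform.

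The 6 receptors followed different regional orders. Grm4 mRNA was 32.2-fold higher in the cerebellum than in the hippocampus, whereas Grm5 mRNA was 36.2-fold lower. Grm2 and Grm7 were at similar levels in hippocampus and cortex and lower in the cerebellum, Grm3 was highest in the cortex, and Grm8 was near the limit of detection, with its highest levels in the cortex. A gene was called different where its false discovery rate (FDR, the Benjamini-Hochberg adjusted p of edgeR's quasi-likelihood test over all genes) was below 0.01 and its fold change was over 2 or under 0.5. Between cortex and hippocampus 2 of the 6 receptors were called, both higher in cortex, against 8.41% of the 11137 genes tested (4.38% higher in cortex and 4.03% higher in hippocampus). Between cerebellum and hippocampus 4 of 6 were called, 1 higher and 3 lower in cerebellum, against 22.8% of all genes (9.76% higher in cerebellum and 13.0% higher in hippocampus). Between cerebellum and cortex 5 of 6 were called, 1 higher and 4 lower in cerebellum, against 22.6% of all genes (9.70% higher in cerebellum and 12.9% higher in cortex). These libraries are of whole tissue, in which fewer cells of a type and less RNA per cell cannot be told apart.

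**Figure D1:**
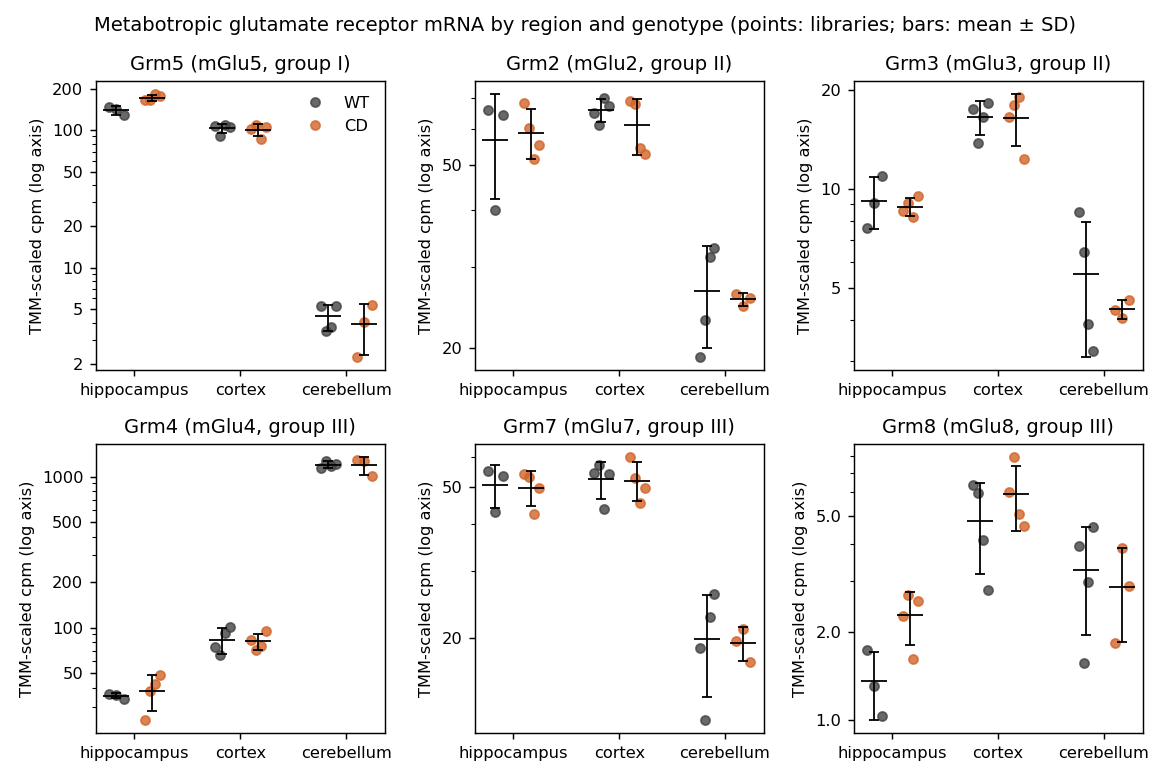
TMM-scaled cpm (log axis) of the 6 receptor genes in the 22 libraries, by region, with wild-type (WT, grey) and CD (orange) libraries as points and the mean ± SD of each group as bars; each panel has its own axis. The 7 cerebella lie between 2.25 and 5.36 cpm for Grm5 and between 1003 and 1286 cpm for Grm4, outside the range of the other regions, and the genotypes lie side by side in most groups.

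Grm5 encodes mGlu5, the main group I receptor of forebrain neurons. Its lowest, median and highest levels were 129, 165 and 182.5 cpm in hippocampi, 85.8, 105 and 109 cpm in cortices, and 2.25, 4.05 and 5.36 cpm in cerebella. No library of one region overlapped those of another. The means were 158 ± 19.3 cpm (SD, n = 7), 102 ± 8.61 cpm (n = 8) and 4.21 ± 1.17 cpm (n = 7), the last resting on 11 to 43 counts per library. Cerebellum was lower than hippocampus (log2 fold change -5.18, SE 0.12, edgeR FDR = 3.90e-21) and 23.8-fold lower than cortex (-4.57, SE 0.12, edgeR FDR = 2.06e-20). Cortex was lower than hippocampus (-0.61, SE 0.09, edgeR FDR = 4.35e-06), a 1.52-fold difference that passed the FDR but not the fold threshold. In all 7 mice with both libraries the cortex was below the hippocampus (exact sign-flip test, p = 0.0156, the smallest that 7 pairs can give), with log2 differences from -1.08 to -0.29.

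Grm2 encodes mGlu2, a presynaptic autoreceptor that cerebellar Golgi cells also carry. Its lowest, median and highest levels were 39.9, 60.3 and 68.3 cpm in hippocampi, 53.0, 66.1 and 70.2 cpm in cortices, and 19.1, 25.7 and 33.1 cpm in cerebella. The hippocampus and cortex overlapped, and all cerebella were below both. Cortex and hippocampus differed by 0.14 (SE 0.12, 95% interval -0.10 to 0.38, edgeR FDR = 0.380) on the log2 scale, and 5 of 7 mice were higher in cortex. Cerebellum was 2.21-fold lower than hippocampus (log2 fold change -1.14, SE 0.12, edgeR FDR = 1.75e-08) and 2.43-fold lower than cortex (-1.28, SE 0.12, edgeR FDR = 1.47e-09). Each of the 6 and 7 mice giving those pairs was lower in cerebellum, and the exact sign-flip p was 0.0312 and 0.0156, the smallest possible.

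Grm3 encodes mGlu3, which is found on neurons and on astrocytes. Its lowest, median and highest levels were 7.65, 9.07 and 11.0 cpm in hippocampi, 12.4, 17.02 and 19.1 cpm in cortices, and 3.22, 4.30 and 8.50 cpm in cerebella. The cortex stood above both other regions in every library, while the hippocampus and cerebellum overlapped through 1 cerebellum, that of wild-type mouse m162. Cortex exceeded hippocampus by a log2 fold change of 0.86 (SE 0.15, edgeR FDR = 7.42e-05), which is 1.82-fold and short of the fold threshold, and it did so in 7 of 7 mice. Cerebellum was 3.34-fold lower than cortex (-1.74, SE 0.17, edgeR FDR = 1.59e-09). Against hippocampus it was lower as well (-0.88, SE 0.17, edgeR FDR = 0.000116) but short of the fold threshold, with 1 of 6 mice going the other way. Without the cerebellum of mouse m162 that difference was -1.03 and was called. The summed astrocyte markers were 170 to 203 cpm in the hippocampi, 146 to 178 cpm in the cortices and 259 to 308 cpm in the cerebella. Within that list Aqp4 was at 69.5 to 102 cpm, 43.9 to 63.2 cpm and 150 to 212 cpm in these regions and Fgfr3 at 14.7 to 19.3 cpm, 15.3 to 24.7 cpm and 10.03 to 17.2 cpm, so the markers differed among themselves, and their part in the Grm3 values was not tested.

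Grm4 encodes mGlu4, the autoreceptor of the parallel fibre terminals of cerebellar granule cells. Its lowest, median and highest levels were 24.5, 36.3 and 48.3 cpm in hippocampi, 65.7, 79.2 and 100.3 cpm in cortices, and 1003, 1208 and 1286 cpm in cerebella. The 3 regions did not overlap in any library. Cerebellum exceeded hippocampus by a log2 fold change of 5.01 (SE 0.13, edgeR FDR = 2.27e-20) and cortex by 3.86, a 14.5-fold difference (SE 0.12, edgeR FDR = 1.65e-19). The granule cell markers given above were higher in the same libraries, and their part in the Grm4 difference was not tested. Cortex exceeded hippocampus 2.22-fold (log2 fold change 1.15, SE 0.11, edgeR FDR = 1.28e-08), with 7 of 7 mice higher in cortex by 0.84 to 1.73 on the log2 scale (exact sign-flip p = 0.0156, the smallest possible). The lowest hippocampal value was that of the library of mouse m118 described above, and without it the difference between cortex and hippocampus was 1.07 and still called.

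Grm7 encodes mGlu7, a receptor of the active zone of presynaptic terminals. Its lowest, median and highest levels were 42.5, 52.9 and 55.1 cpm in hippocampi, 43.8, 53.3 and 59.9 cpm in cortices, and 12.2, 19.7 and 26.1 cpm in cerebella. Hippocampus and cortex covered almost the same range, and all cerebella were lower. The difference between cortex and hippocampus was 0.06 on the log2 scale (SE 0.11, 95% interval -0.17 to 0.29, edgeR FDR = 0.735). Cerebellum was 2.55-fold lower than hippocampus (-1.35, SE 0.12, edgeR FDR = 7.55e-10) and 2.65-fold lower than cortex (-1.41, SE 0.12, edgeR FDR = 2.25e-10), and was the lower region in each mouse with both libraries.

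Grm8 encodes mGlu8, a presynaptic receptor made by few neurons. Its lowest, median and highest levels were 1.03, 1.74 and 2.67 cpm in hippocampi, 2.79, 5.53 and 7.94 cpm in cortices, and 1.57, 2.97 and 4.58 cpm in cerebella, which are 6 to 53 counts per library. All cortices were above all hippocampi, and the cerebella overlapped both. Cortex exceeded hippocampus 3.05-fold (log2 fold change 1.61, SE 0.25, edgeR FDR = 1.44e-05). On the TMM-scaled cpm printed here, Grm8 reached 5 cpm in 5 of 8 cortices and in no other library. The expression filter divided counts by library totals, and on that scale the cortex of CD mouse m190 fell short, with 29 counts against 30.9. Grm8 thus passed the filter only through the region where it was highest, and this call is not independent of that filter. The paired comparison, which used no filter, placed cortex above hippocampus in 7 of 7 mice (exact sign-flip p = 0.0156, the smallest possible). Cerebellum differed from hippocampus by 0.79 (SE 0.27, edgeR FDR = 0.0140) and from cortex by -0.82 (SE 0.24, edgeR FDR = 0.00437), and neither was called.

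**Figure D2:**
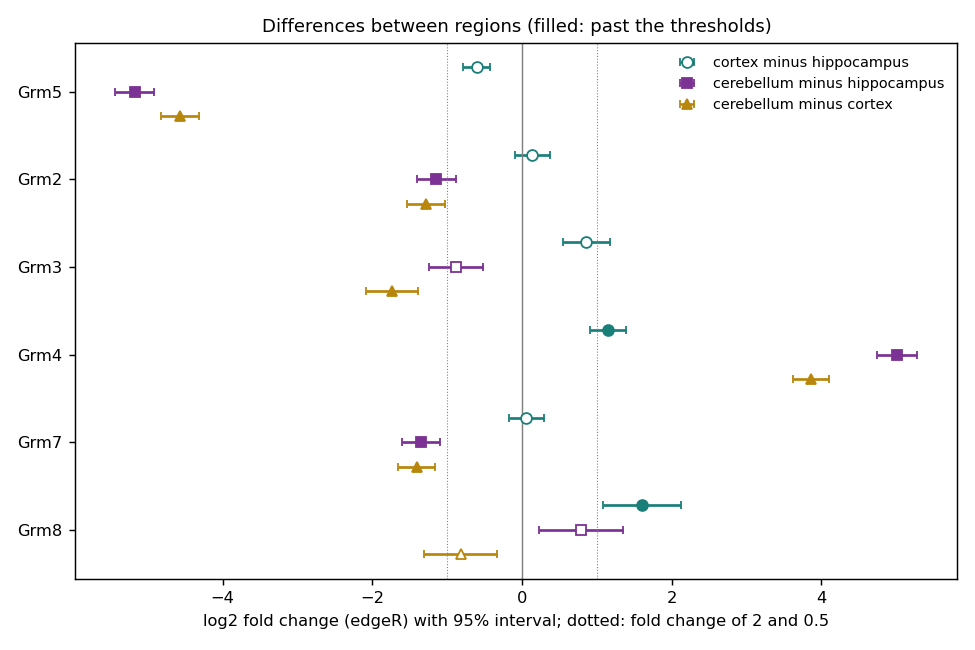
Log2 fold changes between regions of the 6 receptor genes with 95% intervals (edgeR, 22 libraries, both genotypes averaged); filled symbols passed the FDR and fold thresholds, and dotted lines mark fold changes of 2 and 0.5. Grm4 and Grm5 lie far on opposite sides in both comparisons with the cerebellum (5.01 and -5.18 against the hippocampus), and the intervals of Grm2 and Grm7 between cortex and hippocampus include 0.

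The regional differences were also fitted in the wild-type and the CD libraries apart. The Grm4 difference between cerebellum and hippocampus was 5.07 (SE 0.16) in wild-type and 4.95 (SE 0.18) in CD libraries, and that of Grm5 was -4.96 (SE 0.15) and -5.39 (SE 0.19). Cortex was above hippocampus in Grm8 by 1.86 (SE 0.42) in wild-type and by 1.35 (SE 0.29) in CD libraries. The calls were those of all 22 libraries in both genotypes, except that Grm3 was also called lower in cerebellum than in hippocampus in the CD libraries (-1.02, edgeR FDR = 0.000573).

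Between genotypes no receptor gene passed the thresholds in any region. The number of receptor genes called by edgeR was 0 of 5 tested in hippocampi, 0 of 6 in cortices and 0 of 5 in cerebella, and DESeq2 also called 0 in each. Grm8 was below the filter in hippocampus and cerebellum. Over all genes edgeR called 0% in each region as well. The share of all genes at an unadjusted p below 0.05 was 4.22% in hippocampi, 3.30% in cortices and 4.55% in cerebella, and the receptors at that level numbered 1, 0 and 0. The share of all genes whose wild-type and CD libraries did not overlap was 5.44%, 2.54% and 5.33%, and the receptors without overlap numbered 1 of 5, 0 of 6 and 0 of 5. In both counts the 1 receptor was Grm5 in the hippocampus. Without the library of mouse m118 edgeR called 0 of 5 receptors in the hippocampus and 0 of 9861 genes, and the receptors at an unadjusted p below 0.05 remained 1, against 4.42% of all genes. The receptors without overlap then numbered 2 of 5, Grm5 and Grm4, against 9.20% of all genes. Over the whole table DESeq2 called 2 genes in hippocampi, 1 in cortices and 0 in cerebella.

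Grm5 was at 148, 142 and 129 cpm in the hippocampi of wild-type mice m162, m240 and m244. In CD mice m118, m138, m190 and m242 it was at 165, 165, 182.5 and 176 cpm. Every CD library was above every wild-type library, including the library of mouse m118 whose Tulp4 value went against its label. The means were 139.5 ± 9.84 cpm (SD, n = 3) and 172 ± 8.59 cpm (n = 4), a 1.24-fold difference (log2 fold change 0.31, SE 0.10, 95% interval 0.09 to 0.52). The unadjusted p was 0.00917 in edgeR with an FDR of 0.997 over 9964 genes, so it did not pass, and the exact permutation test gave p = 0.0286, the smallest that 3 against 4 libraries allow, among 18 such tests of receptors. Without the library of mouse m118 the difference was 0.33 (edgeR FDR = 0.998), and the exact permutation test gave p = 0.1, the smallest for 3 against 3 libraries. Over all single libraries left out it lay between 0.25 and 0.35, with unadjusted p between 0.00860 and 0.0413.

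Tissue markers in the same hippocampi varied on their own. Choroid plexus markers summed to 163, 299 and 8367 cpm in the wild-type libraries and to 145, 1228, 4206 and 568 cpm in the CD libraries, in the order of mice above. All 6 of these markers were in the table, and Ttr made up most of the sum. Oligodendrocyte markers summed to 1448, 1570 and 1476 cpm in wild-type and to 1866, 1428, 1477 and 1060.5 cpm in CD libraries, and hippocampal neuron markers to 1099.9 to 1594 cpm and 1004.5 to 1408 cpm. The ranges of all 3 lists overlapped between genotypes, and their part in the Grm5 values was not tested.

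Outside the hippocampus Grm5 did not show the same ordering. In the cortex it was at 106, 91.2, 109 and 105 cpm in wild-type and 102, 109, 85.8 and 106 cpm in CD libraries, and the difference was -0.04 (SE 0.11, 95% interval -0.28 to 0.21). In the cerebellum it was at 5.31, 3.49, 3.72 and 5.25 cpm in wild-type and 2.25, 4.05 and 5.36 cpm in CD libraries, and the difference was -0.15 (SE 0.32, 95% interval -0.85 to 0.55). Groups overlapped in both regions. The genotype difference itself was not shown to differ between regions (edgeR interaction test, unadjusted p = 0.110, FDR = 0.999), and over the 3 regions together it was 0.04 (SE 0.11) in limma with the mouse as a random block.

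Grm2 in the hippocampus was at 65.9, 39.9 and 64.4 cpm in wild-type and 68.3, 60.3, 51.5 and 55.4 cpm in CD libraries. Wild-type mouse m240 gave the lowest value, and the groups overlapped, with a log2 difference of 0.06 (SE 0.17, 95% interval -0.32 to 0.43). Without the library of mouse m118 it was -0.01. Grm2 ranged from 61.1 to 70.2 cpm in wild-type and 53.0 to 69.1 cpm in CD cortices, and from 19.1 to 33.1 cpm in wild-type and 24.7 to 26.2 cpm in CD cerebella. Those groups overlapped too, with differences of -0.11 (SE 0.12) and -0.06 (SE 0.18).

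Grm3 in the hippocampus was at 7.65, 9.07 and 11.0 cpm in wild-type and 8.60, 9.07, 8.26 and 9.51 cpm in CD libraries. The CD values fell inside the wild-type range, with a log2 difference of -0.06 (SE 0.19), or -0.04 without mouse m118. In the cortex the difference was -0.01 (SE 0.17). In the cerebellum wild-type libraries spanned 3.22 to 8.50 cpm and CD libraries 4.05 to 4.62 cpm, and the difference was -0.35 with the widest interval of the receptors tested there, -1.08 to 0.37. With 1 library left out it ranged from -0.54 to -0.059, the smallest size being that found when the cerebellum of mouse m162 was dropped.

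Grm4 in the hippocampus was at 36.3, 35.9 and 33.9 cpm in wild-type and 24.5, 37.9, 42.2 and 48.3 cpm in CD libraries. The library of mouse m118 lay below all wild-type libraries and the other 3 CD libraries lay above them. The log2 difference was 0.13 (SE 0.19, 95% interval -0.28 to 0.53) with that library and 0.28 without it (edgeR FDR = 0.998), and leaving out CD mouse m242 instead gave -0.0012. Grm4 in the cerebellum, where its counts per library were highest, at 6278 to 8040, had a mean of 1196 ± 62.0 cpm (SD, n = 4) over wild-type mice and 1188 ± 160.6 cpm (n = 3) over CD mice. The difference was -0.01 (SE 0.11, 95% interval -0.24 to 0.22), and in the cortex it was -0.03 (SE 0.15).

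Grm7 in the hippocampus was at 55.1, 43.0 and 53.3 cpm in wild-type and 53.9, 52.9, 42.5 and 49.5 cpm in CD libraries. The groups overlapped, with a log2 difference of -0.02 (SE 0.13), or -0.05 without mouse m118. The differences in cortex and cerebellum were -0.02 (SE 0.13) and -0.04 (SE 0.21). Over the 3 regions the interval of the Grm7 difference was -0.21 to 0.20.

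Grm8 in the hippocampus was at 1.74, 1.31 and 1.03 cpm in wild-type and 2.28, 2.67, 1.62 and 2.55 cpm in CD libraries, which are 6 to 11 and 9 to 23 counts. Of the CD libraries only that of mouse m190 fell within the wild-type range. The two-sided exact permutation test gave p = 0.0857 on log2(cpm + 0.5). Without the library of mouse m118 the mean log2 difference was 0.58 and p = 0.2 in the same exact test, where 0.1 is the smallest possible. In the cortex wild-type libraries ranged from 2.79 to 6.34 cpm and CD libraries from 4.62 to 7.94 cpm, a difference of 0.23 (SE 0.29, 95% interval -0.39 to 0.86). In the cerebellum wild-type libraries ranged from 1.57 to 4.58 cpm and CD libraries from 1.84 to 3.87 cpm. The mean difference of log2(cpm + 0.5) there was -0.13, in the other direction, with p = 0.686 in the two-sided exact permutation test.

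Over the 3 regions together limma called 0 of 6 receptors and 0% of all genes, with 399 genes at an unadjusted p below 0.05 and none of the receptors among them. The interaction of genotype and region reached an FDR below 0.05 for 0 of 6 receptors and 0% of all genes in edgeR, with 435 genes at an unadjusted p below 0.05 and again no receptor among them.

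**Figure D3:**
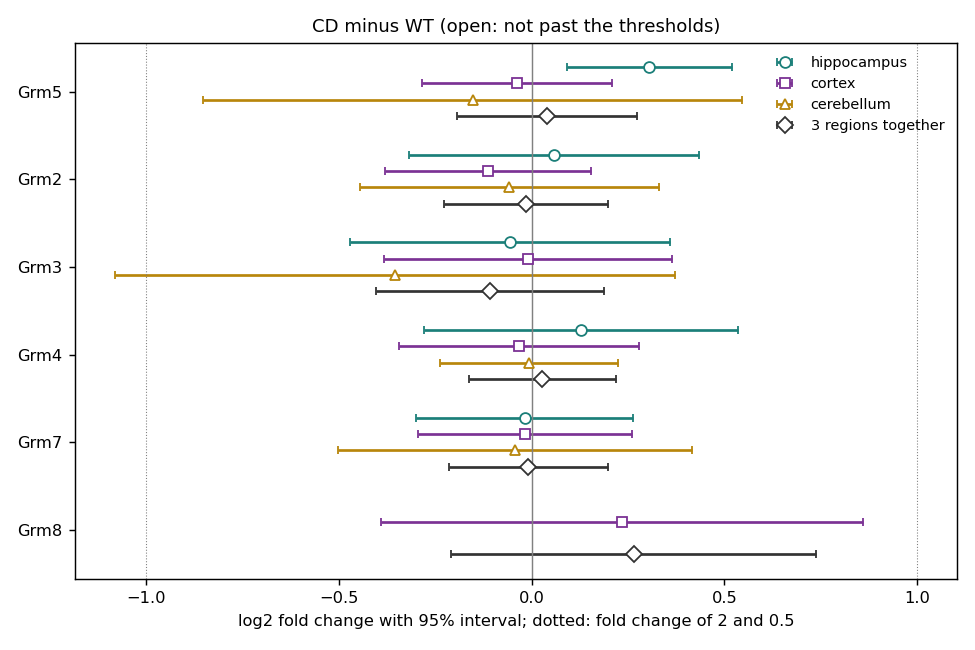
Log2 fold changes of CD against WT for the 6 receptor genes with 95% intervals, in each region (edgeR) and over the 3 regions together (limma with mouse as a random block); open symbols did not pass the thresholds, and dotted lines mark fold changes of 2 and 0.5. Only the interval of Grm5 in the hippocampus (0.09 to 0.52) excludes 0, and its FDR over all genes was 0.997; Grm8 was below the expression filter in hippocampus and cerebellum.

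Genes that act with the receptors were described in the same fits, and their counts are set against the shares of all genes called, which were 9.70% higher and 12.9% lower in cerebellum than in cortex, 9.76% and 13.0% against hippocampus, and 4.38% and 4.03% for cortex against hippocampus. Several of the genes named passed the expression filter only through regions where they were high, and their calls are not independent of it. Itpr3 reached 5 cpm in 4 of 7 cerebella and in no other library, and Grip2 in 6 of 8 cortices and in no other. Elfn2, Grasp and Slc17a6 reached it in every hippocampus and cortex but in 0, 1 and 0 of 7 cerebella. Kcnj6 reached it in 4 of 7 hippocampi, 0 of 8 cortices and 5 of 7 cerebella. Of the Gq pathway genes that serve group I receptors, 13 of 16 passed the filter. Between cerebellum and cortex 5 were called higher and 3 lower, with a median log2 fold change of -0.20 against 0.02 for all genes, and between cerebellum and hippocampus 5 were higher and 2 lower (median -0.41 against 0.02). The phospholipase C genes moved apart. Plcb4 was 66.2 ± 15.2 cpm in the cerebellum and 4.86 ± 1.30 cpm in the hippocampus (14.3-fold, edgeR FDR = 7.23e-15), and Plcb1 was 4.05-fold lower in the cerebellum (edgeR FDR = 1.53e-13). Itpr3, an inositol trisphosphate receptor, was 5.65-fold higher in the cerebellum than in the cortex (edgeR FDR = 2.93e-07). Prkca, a protein kinase C, was lower in the cerebellum than in hippocampus and cortex by 4.36-fold and 3.05-fold. Between cortex and hippocampus 2 were called, both higher in cortex, Plcb4 among them (4.24-fold).

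Of the Gi/o pathway genes that serve group II and III receptors, 22 of 24 passed the filter. Between cerebellum and cortex 3 were called higher and 5 lower (median -0.67 against 0.02 for all genes), between cerebellum and hippocampus 3 higher and 6 lower (median -0.22), and between cortex and hippocampus 2 higher and 1 lower (median 0.18 against -0.01). Rgs4 and Rgs8, which speed the shut-off of Gi/o and Gq signals, went in opposite directions. Rgs4 was 1919 ± 268 cpm in the cortex, 447 ± 53.8 cpm in the hippocampus and 44.5 ± 10.1 cpm in the cerebellum, and Rgs8 was 800.1 ± 145.5 cpm in the cerebellum and 78.6 ± 8.25 cpm in the hippocampus. The G protein subunit gene Gng13 was 6.88-fold higher and Gng2 3.72-fold lower in the cerebellum than in the hippocampus, and the adenylyl cyclase gene Adcy2 was 4.22-fold lower in cerebellum than in cortex. Of the potassium channel genes opened by Gi/o, Kcnj9 was 2.42-fold higher and Kcnj6 2.61-fold lower in cortex than in hippocampus.

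Of the genes for proteins that bind the receptors, 11 of 14 passed the filter, and 1 was called higher and 7 lower in cerebellum than in cortex (median -1.25 against 0.02 for all genes). Against hippocampus 1 was higher and 6 lower (median -1.30). The Homer scaffolds, which tie group I receptors to the postsynaptic density, were split. Homer3 was 492 ± 58.3 cpm in the cerebellum, 85.1 ± 16.5 cpm in the hippocampus and 10.5 ± 2.58 cpm in the cortex, whereas Homer1 was 2.33-fold higher in cortex than in hippocampus. Elfn2, a postsynaptic ligand of group III receptors, and Grasp, the scaffold also called tamalin, were 12.3-fold and 8.78-fold lower in the cerebellum than in the hippocampus (edgeR FDR = 1.49e-11 and 1.02e-12). Between cortex and hippocampus 2 were higher and 2 lower, the others being the scaffold gene Grip2 (3.35-fold higher) and Ncdn, which encodes neurochondrin (2.07-fold lower).

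Of the genes for supply and clearance of glutamate and of N-acetylaspartylglutamate, a peptide ligand of mGlu3, 12 of 15 passed the filter. In the cerebellum 2 were called higher and 7 lower than in the cortex (median -1.17 against 0.02 for all genes), and 1 higher and 7 lower than in the hippocampus (median -1.12). Slc1a6, the Purkinje cell glutamate transporter, was 268 ± 29.5 cpm in the cerebellum and 11.2 ± 1.65 cpm in the hippocampus. Slc17a6, a vesicular glutamate transporter, was 1.62 ± 1.27 cpm in the cerebellum and 34.1 ± 13.5 cpm in the cortex. The astrocyte transporter gene Slc1a2 was 3.76-fold lower in cerebellum than in cortex and the neuronal transporter gene Slc1a1 4.35-fold lower in cerebellum than in hippocampus. Rimkla, which makes the peptide, was 2.42-fold higher in cerebellum than in cortex. Purkinje cell markers summed to 4678 to 5457 cpm in the cerebella and to 336 to 580 cpm elsewhere. Within that list Itpka went the other way, at 51.6 to 68.2 cpm in cerebella, 120 to 199 cpm in hippocampi and 126 to 178 cpm in cortices. The other genes of the list were higher in every cerebellum than elsewhere. The part of these markers in the higher levels of Homer3, Slc1a6, Plcb4 and Rgs8 was not tested. Between genotypes 0 genes of these 4 lists were called by edgeR in any region. At an unadjusted p below 0.05 there were 1 gene in hippocampi, 2 in cortices and 0 in cerebella, against 4.22%, 3.30% and 4.55% of all genes. The genes tested, list by list in the order above, were 10, 22, 10 and 12 in hippocampi, 10, 21, 11 and 12 in cortices and 13, 21, 8 and 11 in cerebella.

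**Figure D4:**
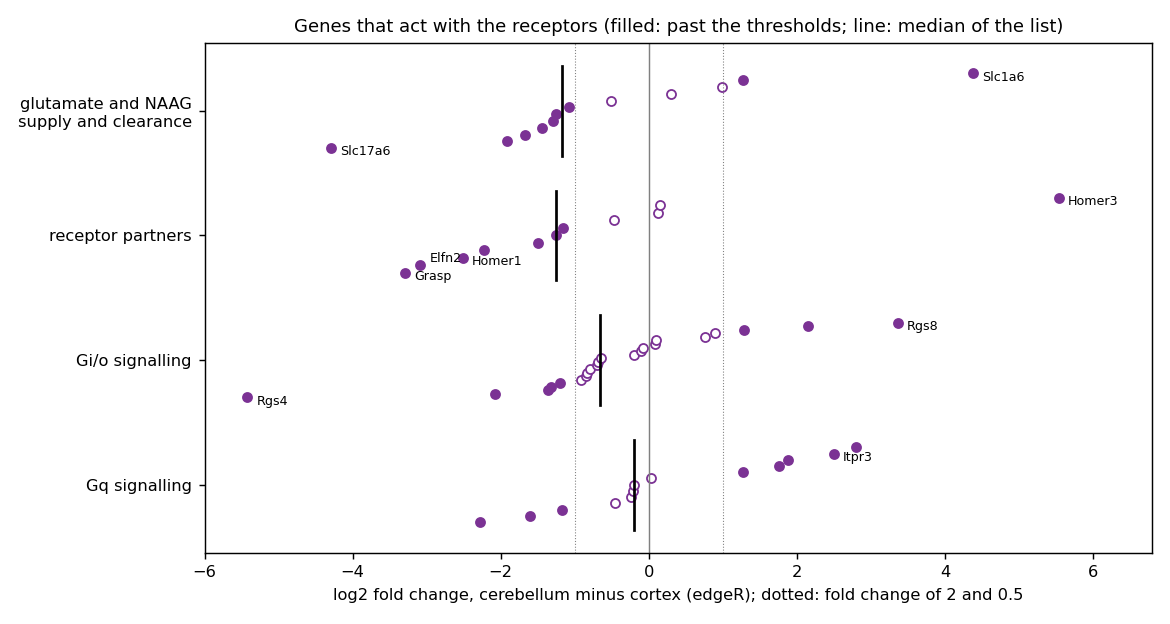
Log2 fold changes between cerebellum and cortex (edgeR) of the genes of 4 lists that act with the receptors; each point is a gene, filled where it passed the thresholds, the black line is the median of the list, and dotted lines mark fold changes of 2 and 0.5. Points lie on both sides of 0 in each list, with Homer3 at 5.54 and Rgs4 at -5.42 at the ends.

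The genes whose levels ran most like each receptor over the 22 libraries were listed by Pearson's r of log2 cpm. The libraries fall into 3 regions and share tissue and depth, so r mostly describes the regional order. For Grm5 they were Chst1 (r = 0.996), 2010204K13Rik (0.995) and Prickle2 (0.993), and for Grm4 they were Gria4 (0.991), Csdc2 (0.990) and Nrep (0.989). For Grm2 they were Pitpnm2 (0.965), Basp1 (0.959) and Actn1 (0.958), and for Grm7 Kcnq3 (0.976), B230209E15Rik (0.974) and Rgs11 (0.973). Grm3 and Grm8 had lower values of r. They also had the fewest counts of the receptors, and a link between these was not tested. For Grm3 they were Ddit4l (0.943), Ppp2r5a (0.938) and Ngef (0.932), and for Grm8 Cit (0.866), Zfp703 (0.847) and Adcyap1 (0.847).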

How the data were processed

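The authors deposited raw counts per RefSeq transcript for 22 libraries, made by aligning CelSeq2 reads to mm10 with STAR and counting 3′ ends with the End Sequence Analysis Toolkit. Tool versions, collapsing of molecular identifiers and the counting of shared or antisense reads are not given in the sources used here. Of 85964 transcripts, 80.6% matched a gene by accession without version, and the transcript with the highest total stood for its gene. Groups and mouse numbers come from the sample labels. The study's text gives 1 library fewer for each group, and all labelled libraries were used.

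Genes at 5 cpm in at least 2 libraries were scaled by TMM and tested with edgeR 4.0.16 (quasi-likelihood) in R 4.3.3. Regions were compared over 22 libraries with 6 group means and genotypes within each region. Limma 3.58.1 (voom, mouse as random block) tested genotype over 3 regions. A gene was called at an FDR below 0.01 with a fold change over 2 or under 0.5, and the interaction at an FDR below 0.05. Printed cpm use TMM over all libraries, except those of Tulp4, which are divided by library totals. The filter at 5 cpm, and the counts of libraries reaching it for genes that act with the receptors, also use library totals. SE is the log2 fold change divided by the root of F. Exact tests were two-sided on log2(cpm + 0.5). They permuted libraries or flipped signs over mice.

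Alternatives were other size factors, no filter, DESeq2 1.42.0, summed transcripts, blocks, single genotypes and leaving out each library. Fits that left out a library, and the blocked interaction fit, reused the mouse correlation of all libraries. Same-numbered libraries are regions of one mouse, by their labels. Their deviations from group means correlated by 0.083 between cortex and hippocampus, 0.047 between cerebellum and hippocampus and -0.004 between cerebellum and cortex (means over mice). Scripts were checked on simulated counts. Named genes were the receptors, the 2 most changed called genes of each list in each direction and region comparison, and the 3 genes most correlated with each receptor. Some genes that this rule names are not reported here. The members and lists were chosen with earlier results of these data known. No label says that libraries are technical repeats of a mouse. Tables were processed with Python 3.11.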

Additional observations from a re-analysis of the deposited data

How the results depend on the processing

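All region calls of Grm2, Grm4, Grm5 and Grm7 kept their direction and call under each alternative run. With distinct transcripts summed, 1 receptor instead of 2 was called between cortex and hippocampus, because Grm8 fell below the filter. Without a filter 1471 genes were called between cortex and hippocampus. With the mouse as a replicate block 926, 2548 and 2519 genes were called in cortex against hippocampus, cerebellum against hippocampus and cerebellum against cortex, and no receptor call changed. Grm3 between cerebellum and hippocampus was called in CD libraries alone (-1.02) and in 1 of 22 fits that left out a library.

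Between genotypes no receptor was called under any alternative. Over all genes the count rose without a filter to 10 in the cerebellum, 6 in the hippocampus and 3 in the cortex, and with DESeq2 to 2 in the hippocampus and 1 in the cortex. The interaction was called for 24 genes without a filter. Without the mouse block 0 genes were called over the regions. Genotypes cannot be paired, since each mouse has 1 genotype. Leaving out 1 library gave 0 to 1 genes in the cortex and 0 to 1 in the cerebellum. Without a filter, differences near 0 changed sign for Grm3 in the cortex (0.0055), and for Grm2 (0.0013) and Grm7 (0.0063) over the regions.

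Leaving out 1 library changed the sign of other small genotype differences, none of them called. In the hippocampus Grm2 ranged from -0.15 to 0.18, Grm3 from -0.17 to 0.080, Grm4 from -0.0012 to 0.28 and Grm7 from -0.12 to 0.052. In the cortex Grm3 ranged from -0.086 to 0.11, Grm4 from -0.13 to 0.065, Grm5 from -0.089 to 0.032 and Grm7 from -0.093 to 0.041. In the cerebellum Grm2 ranged from -0.19 to 0.062, Grm4 from -0.070 to 0.10, Grm5 from -0.49 to 0.093 and Grm7 from -0.22 to 0.11. Over the regions Grm2 ranged from -0.10 to 0.030, Grm4 from -0.011 to 0.085, Grm5 from -0.075 to 0.13 and Grm7 from -0.082 to 0.039. Grm2 and Grm8 in the cortex kept their sign, from -0.17 to -0.050 and 0.058 to 0.40, as did Grm3 and Grm8 over the regions, from -0.19 to -0.018 and 0.16 to 0.33. Depth limits Grm8 and the cerebellar values of Grm3 and Grm5 most, at 6 to 53, 19 to 56 and 11 to 43 counts per library. Counting errors do not include differences between mice.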

Other observations

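Other transcripts of the receptors were looked at after their values had been seen. The Grm4 transcript XM_006524321 had 104 and 33 counts in the cerebella of wild-type mice m162 and m164 and 93 in that of CD mouse m242, but 5 and 6 in wild-type mice m240 and m244 and 4 and 8 in CD mice m118 and m190. It had 0 to 2 counts in any hippocampus and 0 to 1 in any cortex. The 3 higher cerebella belonged to both genotypes. The counts came to between 0.0637% and 1.40% of those of the Grm4 transcript used above. For Grm7, XM_006505300 held 3.40% of the counts of the transcript used in hippocampi, 1.81% in cortices and 0.976% in cerebella, the last from 8 counts in all, and XR_001785078 held 19.8%, 19.1% and 24.9%. How counts shared by transcripts were divided is not stated, and none of these differences was tested.

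For Grm3 and Grm2 the wild-type cerebella also fell into pairs, a pattern noticed in the values and not tested. Mice m162 and m164 had Grm3 at 8.50 and 6.45 cpm and mice m240 and m244 at 3.90 and 3.22 cpm. Grm2 went the other way, at 19.1 and 23.0 cpm against 31.6 and 33.1 cpm. Grm4, Grm5 and Grm8 did not separate these pairs, with Grm5 at 5.31 and 3.49 cpm against 3.72 and 5.25 cpm and Grm8 at 3.95 and 1.57 cpm against 2.97 and 4.58 cpm. Grm7 did, at 18.8 and 12.2 cpm against 22.7 and 26.1 cpm, but mice m162 and m164 were farther apart than mice m162 and m240. The CD cerebella lay between these pairs for Grm2, at 24.7 to 26.2 cpm, and between 4.05 and 4.62 cpm for Grm3.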
